A study of Oryza sativa with 12 samples.

Results

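In rice (Oryza sativa) leaves, 162 of the 29690 loci on the array gave a clear signal on every array and lay at least 3 lower on the log2 scale, which is at least 8-fold, under complete submergence in both genotypes studied. The arrays were of FR13A and Goda Heenati, in 4 groups of 3 biological replicates: FR13A submerged, FR13A control, Goda Heenati submerged and Goda Heenati control. Seedlings were 14 d old when submergence began. The submerged ones stood for 3 d under water 70 cm deep, with shoot tips 52.7 ± 2.3 cm (FR13A) and 45.9 ± 2.9 cm (Goda Heenati) below the surface at the start, and the controls stood in a tank that held no water. All plants were raised in a glasshouse in unfertilised paddy soil, and each sample pooled leaves of about 20 plants, so that single plants, other organs and other times are not covered. In bulk leaf samples, fewer cells of a type and less RNA per cell cannot be told apart.

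The loci were selected on measured values. A locus was taken when its brightest probe was well above background on all 12 arrays and its mean level was at least 3 lower in submerged than in control samples of each genotype. The level of a locus is the log2 processed signal of its probe minus the array's 75th percentile. The response is the level in submerged minus that in control samples. Of 29690 loci, 18485 were well above background on all 12 arrays. A further 295 loci had a signal at least 3 lower in both genotypes but were not well above background on every array, so that their fall is not measured in full, and 161 loci that were well above it on all 12 lay at least 3 higher in both. The submergence responses chose the 162 loci and are therefore given as a description, without a test.

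Complete submergence shuts a leaf off from the air, slows the entry of oxygen and carbon dioxide, and stops transpiration. The members of the set that carry a name here encode aquaporins, channel proteins that let water pass through membranes. The plasma membrane intrinsic proteins (PIPs) are found chiefly in the outer membrane of the cell, and the tonoplast intrinsic proteins (TIPs) in the membrane of the vacuole. FR13A is a traditional cultivar known for its tolerance of complete submergence. Loci are not paired with names in the array files, nor in the gene table that was at hand. A name is printed only where it came from a list written from general knowledge and the table holds it on the chromosome of the locus, which does not establish the pairing. The other loci are given by locus, and no role is assigned to them.

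On the 12 arrays, 30612 to 34245 of 42477 probes were well above background. Each replicate number was 1 slide carrying 1 array of every group, and slide 1 was scanned on another day than slides 2 and 3. Its arrays had 1868 to 2442 saturated spots each, against 0 on the other slides. Arrays with the same number deviated together from their group means (r from 0.259 to 0.787 across 22019 loci for 18 pairs, against -0.553 to 0.0321 for the 36 other pairs). As a check of the tissue label, the leaf marker Rca (Os11g0707000), the activase of Rubisco, was well above background on all 12 arrays. The root markers Lsi1 (Os02g0745100) and IRT1 (Os03g0667500), transporters of silicon and iron, were also above it on 12 and NRT2.1 (Os02g0112100), a nitrate transporter, on 1. The meristem marker OSH1 (Os03g0727000) was above it on 7, of which 3 were FR13A submerged, 2 FR13A control, 1 Goda Heenati submerged and 1 Goda Heenati control.

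The median response of the 162 loci was -3.82 in FR13A and -3.89 in Goda Heenati, beside a median of 0.06 and 0.08 over all 22582 loci tested. In FR13A the responses ran from -8.23 to -3.01, with quartiles of -4.30 and -3.39. In Goda Heenati they ran from -7.49 to -3.01, with quartiles of -4.62 and -3.47. Of the 162 loci, 43 lay at least 4 lower in both genotypes, 15 at least 5 lower and 5 at least 6 lower. The larger fall was in FR13A for 67 loci and in Goda Heenati for 95.

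**Figure D1:**
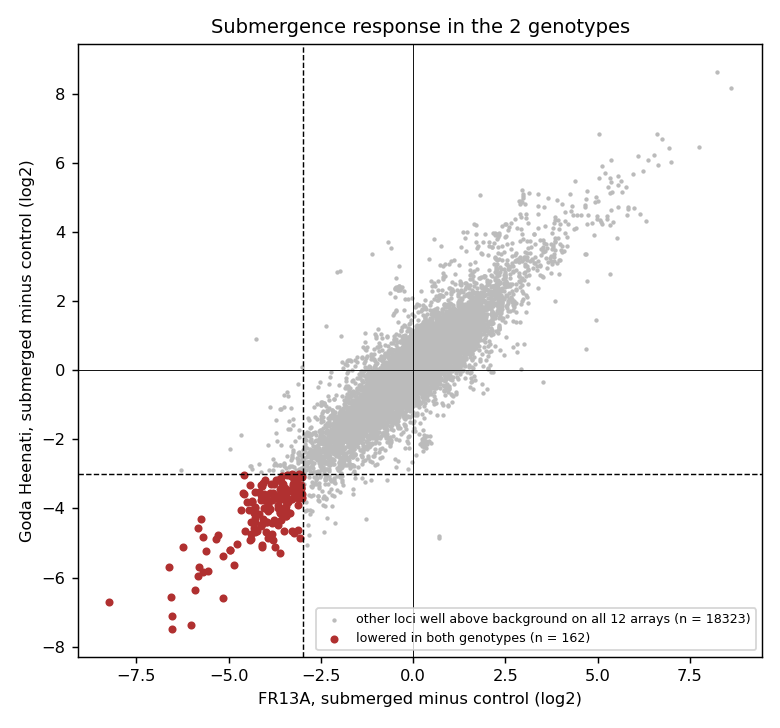
Response to submergence in FR13A (horizontal) and Goda Heenati (vertical), as submerged minus control on the log2 scale, for the 162 lowered loci in red and the 18323 other loci well above background on all 12 arrays in grey. Dashed lines mark -3 in each genotype, and the red points reach -8.23 in FR13A and -7.49 in Goda Heenati.

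A call here is a limma adjusted p under 0.05 with at least a 2-fold difference, over all loci tested. By that measure 159 of the 162 were lower in FR13A, where 11.7% of all loci tested were called lower, and 157 in Goda Heenati, where the share was also 11.7%. Both responses were called lower for 157, beside 8.66% of all loci. These calls follow from the way the loci were chosen. The submerged and the control samples did not overlap for 159 loci in FR13A and 160 in Goda Heenati. The exceptions were Os01g0922700, which overlapped in FR13A, and Os03g0254200 and Os11g0644600, which overlapped in both. A wide gap between these same samples was asked for in the choice, so few loci could overlap. The share over all loci was not counted.

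At the threshold, the members nearest to it were Os06g0215900 with responses of -3.00 in FR13A and -3.46 in Goda Heenati, Os05g0113400 with -3.28 and -3.01, and Os04g0603000 with -3.01 and -3.08. Just outside lay Os07g0619200 with -2.99 and -3.31, Os02g0652000 with -2.99 and -3.30, and Os01g0583100 with -2.98 and -3.40. The smaller falls of these 6 loci differed from each other by far less than replicates of a group did. One array's spot of Os06g0215900, in FR13A submerged replicate 3, was flagged as an outlier by the scanner software. Without that spot its response in FR13A was -3.47 ± 0.25.

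Among all 162, the largest fall in FR13A was that of the aquaporin TIP1;2 (Os01g0975900, chromosome 1), a water channel of the vacuolar membrane. Its level was -6.05, -5.49 and -4.44 in FR13A submerged leaves, against 2.45, 2.52 and 3.73 in FR13A control leaves. In Goda Heenati it was -4.90, -4.53 and -4.22 in submerged leaves, against 1.52, 1.84 and 3.11 in control leaves. The submerged and control samples were far apart in both genotypes, and replicate 3 was the highest of each group. The responses were -8.23 ± 0.53 in FR13A and -6.71 ± 0.53 in Goda Heenati (SE of the limma fit, 3 arrays per group), which is 301-fold and 105-fold lower. On slides 1, 2 and 3 the response was -8.51, -8.02 and -8.17 in FR13A, and -6.42, -6.37 and -7.34 in Goda Heenati. A second probe of the locus, well above background on all 12 arrays, gave -6.66 and -4.64. No spot of the brightest probe was saturated.

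PIP1;3 (Os02g0823100, chromosome 2), a plasma membrane aquaporin, had levels of -3.28, -3.99 and -0.81 in FR13A submerged leaves, against 1.26, 1.22 and 2.68 in FR13A control leaves. In Goda Heenati its levels were -4.06, -3.91 and -0.44 in submerged leaves, against 1.71, 1.79 and 2.84 in control leaves. In both genotypes the third submerged replicate lay well above the others and still below every control. The response was -4.42 ± 1.02 in FR13A and -4.92 ± 1.02 in Goda Heenati (SE). PIP2;2 (Os02g0629200, chromosome 2), also of the plasma membrane, had levels of -2.77, -1.13 and 0.54 in FR13A submerged leaves, against 2.66, 1.72 and 3.01 in FR13A control leaves. Its levels in Goda Heenati were -3.27, -3.63 and 0.07 in submerged leaves, against 2.34, 1.19 and 2.62 in control leaves. Again the third submerged replicate was the highest, and the groups stayed apart. The response of PIP2;2 was -3.58 ± 1.02 in FR13A and -4.33 ± 1.02 in Goda Heenati (SE), and a second probe gave -3.47 and -4.19. PIP2;2 was saturated on the replicate 1 control array of each genotype. With saturated spots left out its response was -3.49 in FR13A and -4.19 in Goda Heenati (limma adjusted p = 0.0694 and 0.0392). The response in FR13A was then no longer called. PIP2;2 was chosen for its fall in these same samples, so these p-values are no independent evidence of it.

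These 3 were among 14 aquaporin loci listed, of which 12 were measured well enough to be tested. In each genotype 5 of the 12 were called lower, none was called higher and 7 did not pass the test, beside 11.7% of all loci tested that were called lower in each. Of those 5, 3 are members chosen for this fall, so the count is no independent evidence. With saturated spots left out, PIP2;2 was no longer called in FR13A, and PIP2;7 (below) was called lower in both genotypes. The median response of the 12 was -1.39 in FR13A and -1.97 in Goda Heenati, beside 0.06 and 0.08 over all loci tested. Outside the set, PIP2;4 (Os07g0448100) was well above background on no submerged array and on all control arrays. It was at least 8.99-fold lower in FR13A (limma adjusted p = 0.00258) and at least 15.4-fold lower in Goda Heenati (adjusted p = 0.002). These bounds set the control mean against, on each submerged array, the higher of the probe's own signal and the lowest signal well above background. With PIP2;4 at its bounds the list medians were the same. PIP2;5 (Os07g0448200) was above background on 2 of the 3 submerged arrays of FR13A and 1 of Goda Heenati, and on all control arrays, so no size is given for its fall (limma adjusted p = 0.0113 in FR13A and 0.0133 in Goda Heenati).

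The 7 aquaporins that did not pass the test were all well above background on every array. The fit did not include the slide, so variation between slides stays in their SE. Not passing the test therefore does not show an unchanged level. PIP2;7 (Os09g0541000) had a response of -2.02 ± 1.07 in FR13A and -2.88 ± 1.07 in Goda Heenati (limma adjusted p = 0.19 and 0.0741). It was saturated on the replicate 1 control array of each genotype. With saturated spots left out its response was -3.02 in FR13A and -3.90 in Goda Heenati (limma adjusted p = 0.0179 and 0.00606). Smaller values were those of PIP2;1 (Os07g0448800), at -0.77 and -0.65, PIP2;6 (Os04g0233400), at -0.62 and -1.07, PIP1;1 (Os02g0666200), at -0.50 and -0.37, and PIP1;2 (Os04g0559700), at -0.31 and -0.35. TIP1;1 (Os03g0146100) had responses of 0.20 and -0.05, and TIP2;2 (Os06g0336200) of 0.31 and 0.85. Except for PIP2;6 these too held saturated spots, on 2 arrays for PIP2;1, on 4 each for PIP1;1, PIP1;2 and TIP1;1, and on 1 for TIP2;2. With such spots left out the responses in FR13A and Goda Heenati were -1.49 and -1.35 for PIP2;1, -0.83 and -0.72 for PIP1;1, and -0.58 and -0.70 for PIP1;2. They were 0.25 and -0.28 for TIP1;1, and 0.31 and 1.20 for TIP2;2, and none of these 5 passed the test. The difference in response between one aquaporin and another was not tested. Probe sequences were not used here, so whether a probe also binds the transcript of another family member was not tested.

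**Figure D2:**
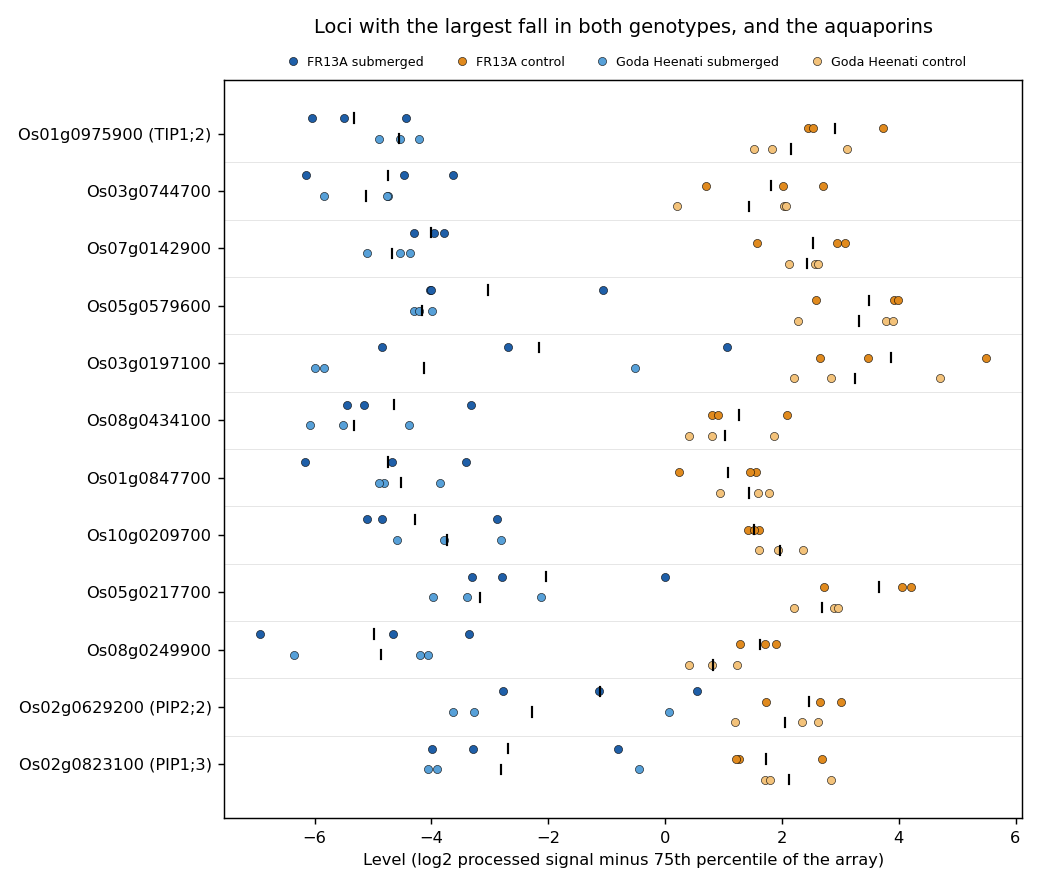
Level (log2 processed signal minus the array's 75th percentile, horizontal) of the 10 loci with the largest fall in both genotypes and of PIP2;2 and PIP1;3, 1 point per array and a bar at the mean of each group of 3. Within every row the submerged points (blue) lie left of the control points (orange) of the same genotype, and single submerged points, such as 1.06 for Os03g0197100, lie far from their group.

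After TIP1;2, the loci that fell furthest in both genotypes carry no name here. Os03g0744700 (chromosome 3) lay at -3.63, -6.15 and -4.47 in FR13A submerged leaves, against 2.70, 0.70 and 2.02 in FR13A control leaves. Goda Heenati gave -5.85, -4.74 and -4.76 in submerged leaves, against 2.04, 0.21 and 2.06 in control leaves. No sample of one treatment came near the other, and its response was -6.56 ± 0.75 in both genotypes. Os07g0142900 (chromosome 7) lay at -3.96, -3.78 and -4.29 in FR13A submerged leaves, against 2.95, 3.08 and 1.57 in FR13A control leaves. The levels in Goda Heenati were -4.54, -4.36 and -5.11 in submerged leaves, against 2.56, 2.61 and 2.12 in control leaves. Its SE was the smallest of the 10, and the responses were -6.55 ± 0.39 in FR13A and -7.10 ± 0.39 in Goda Heenati.

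Os05g0579600 (chromosome 5) had levels of -4.02, -4.01 and -1.07 in FR13A submerged leaves, against 2.59, 3.91 and 3.99 in FR13A control leaves. It lay at -4.30, -3.99 and -4.21 in Goda Heenati submerged leaves, against 2.27, 3.78 and 3.91 in Goda Heenati control leaves. Here 1 FR13A submerged array stood apart, and the response was -6.53 ± 0.76 in FR13A and -7.49 ± 0.76 in Goda Heenati. Os03g0197100 (chromosome 3) varied most of the 10. Its levels were -2.69, -4.85 and 1.06 in FR13A submerged leaves, against 2.65, 3.47 and 5.50 in FR13A control leaves. In Goda Heenati they were -5.84, -6.00 and -0.52 in submerged leaves, against 2.20, 2.84 and 4.71 in control leaves. Replicate 3 was the highest of both submerged groups at this locus, and the responses of -6.03 and -7.37 had an SE of 1.70 each. Os07g0142900, Os05g0579600 and Os03g0197100 were each saturated on the replicate 1 control array of both genotypes and Os03g0744700 on 1 of these arrays, so that their control levels there are lower limits.

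The next 5 were Os08g0434100, with responses of -5.90 ± 0.65 in FR13A and -6.36 ± 0.65 in Goda Heenati, Os01g0847700, with -5.83 ± 0.63 and -5.96 ± 0.63, and Os10g0209700, with -5.79 ± 0.58 and -5.70 ± 0.58. Then came Os05g0217700, with -5.70 ± 0.80 and -5.85 ± 0.80, and Os08g0249900, with -6.61 ± 0.83 and -5.69 ± 0.83. These are falls of between 51.8-fold and 97.5-fold. The locus nearest the median responses of the set was Os03g0820500 (chromosome 3). It lay at -4.92, -5.43 and -4.65 in FR13A submerged leaves, against 0.37, -1.74 and -1.82 in FR13A control leaves, a response of -3.93 ± 0.60. It lay at -4.68, -4.67 and -5.56 in Goda Heenati submerged leaves, against -0.12, -1.63 and -1.47 in Goda Heenati control leaves, a response of -3.90 ± 0.60. At this locus the control replicates spread more than the submerged ones, the reverse of the median over the set. A gap of more than 2 still parted the treatments.

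Some of the 162 were among the bright probes of the control arrays, although levels of different probes cannot be set against each other as amounts of RNA. The 10 brightest in controls were Os01g0963600, Os04g0650700, Os07g0185900, Os03g0197100, Os05g0548900, Os07g0509800, Os05g0579600, Os05g0113400, Os05g0217700 and Os01g0730500. Each was saturated on 2 arrays, the replicate 1 controls, so that the control level there is a lower limit. Os01g0963600 had levels of -0.29, -1.55 and 0.64 in FR13A submerged leaves, against 2.63, 4.95 and 5.25 in FR13A control leaves. It had -0.83, -1.12 and 1.50 in Goda Heenati submerged leaves, against 2.32, 4.61 and 4.74 in Goda Heenati control leaves. The lowest control value of each genotype is the saturated one. The response was -4.68 ± 0.97 in FR13A and -4.04 ± 0.97 in Goda Heenati. Os04g0650700 responded by -5.74 ± 0.98 and -4.30 ± 0.98, Os07g0185900 by -3.81 ± 0.89 and -3.55 ± 0.89, and Os05g0548900 by -3.61 ± 0.59 and -3.18 ± 0.59. Os07g0509800 responded by -4.19 ± 1.27 and -3.53 ± 1.27, and Os01g0730500 by -4.37 ± 0.50 and -3.79 ± 0.50. Over the set, 31 loci were saturated on at least 1 array, 22 of them on the FR13A control array of slide 1, 29 on the Goda Heenati control array of slide 1, and 0 on any submerged array.

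The median level of the 162 was -3.53 in FR13A submerged, 0.49 in FR13A control, -3.59 in Goda Heenati submerged and 0.59 in Goda Heenati control samples. By array, the medians were -3.89, -3.98 and -2.79 in FR13A submerged, against 0.78, 0.24 and 0.61 in FR13A control. They were -3.88, -3.80 and -3.11 in Goda Heenati submerged, against 0.75, 0.30 and 0.54 in Goda Heenati control. The third submerged replicate stood above the others in both genotypes. It was the highest of its group for 129 loci in FR13A and for 106 in Goda Heenati. The replicates of these loci spread more widely than usual. The median SD over the 162 was 0.88 in FR13A submerged, 0.61 in FR13A control, 0.72 in Goda Heenati submerged and 0.50 in Goda Heenati control samples, beside 0.36, 0.38, 0.35 and 0.35 over all loci well above background on all 12 arrays.

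**Figure D3:**
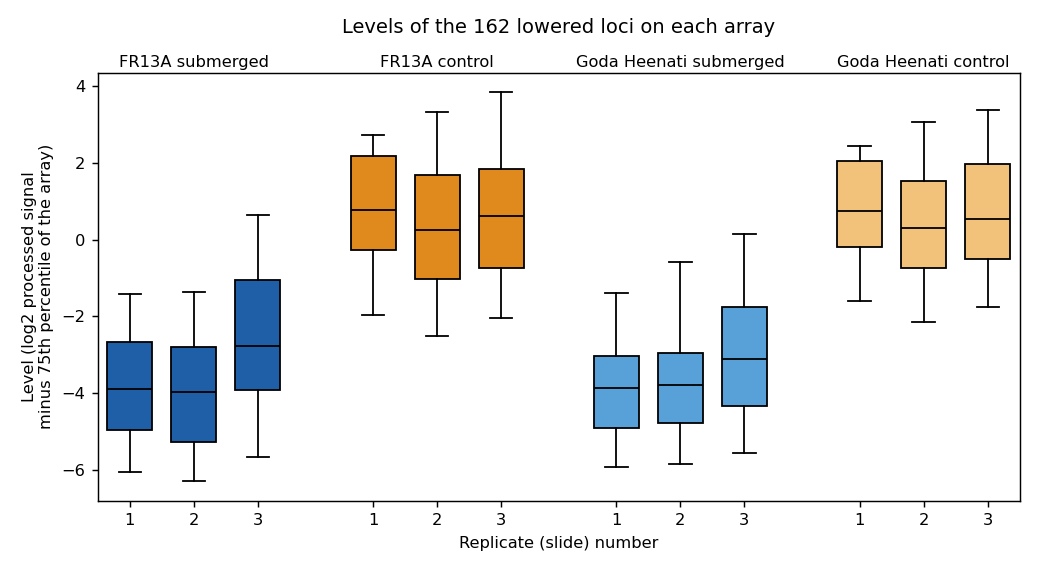
Levels of the 162 lowered loci on each of the 12 arrays (log2 processed signal minus the array's 75th percentile, vertical), with boxes from the lower to the upper quartile, a line at the median and whiskers from the 5th to the 95th percentile of the loci. The medians of the submerged arrays lie between -3.98 and -2.79 and those of the control arrays between 0.24 and 0.78, and the third submerged array is the highest of its group in both genotypes.

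Taken slide by slide, the response was smallest on slide 3. The median response on slides 1, 2 and 3 was -4.44, -4.07 and -3.08 in FR13A, and -4.45, -3.87 and -3.54 in Goda Heenati. Over all loci tested the same medians were 0.11, 0.04 and -0.02 in FR13A, and 0.16, 0.06 and 0.02 in Goda Heenati. Slide 3 gave the smallest fall for 120 of the 162 loci in FR13A and 97 in Goda Heenati. On that slide 84 of 161 loci measured were at least 3 lower in FR13A, and 112 of 162 in Goda Heenati. No locus responded above 0 on any slide, and the smallest fall of a locus on 1 slide was -0.90. Since the 3 slides were also 3 sets of plants, slide and plants cannot be told apart.

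**Figure D4:**
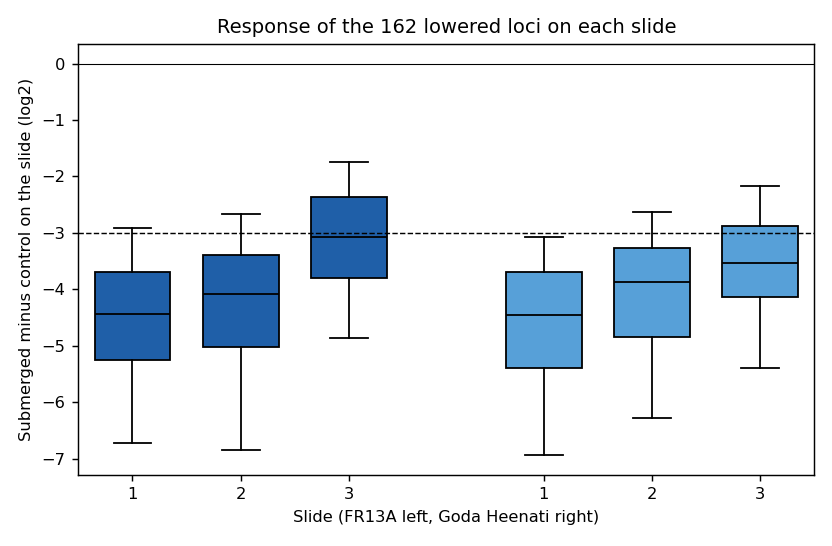
Response of the 162 lowered loci on each slide (submerged minus control array of the same slide, log2, vertical), for FR13A on the left and Goda Heenati on the right, drawn as boxes of quartiles with whiskers from the 5th to the 95th percentile. The medians on slides 1, 2 and 3 are -4.44, -4.07 and -3.08 in FR13A and -4.45, -3.87 and -3.54 in Goda Heenati, with the dashed line at -3.

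Other probes of the same loci had no part in choosing them, but they read the same samples on the same arrays. Of the 162 loci, 47 had 94 further probes, 15 of them on Os05g0215000 alone, and 115 had none. Of these probes 60, on 35 loci, were well above background on all 12 arrays, and 51 of the 60 were at least 3 lower in both genotypes. All 60 were at least 1 lower in both. Their median response was -3.92 in FR13A and -3.78 in Goda Heenati. The weakest, of Os02g0704000, gave -1.90 and -1.68, against -4.05 and -4.00 at the brightest probe of that locus, and it was singled out after its value was seen. Probes of the same locus are not replicates. The falls were not counted by locus, nor set beside a share over all probes.

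The 162 loci were like other expressed loci in most kinds of probe that measured them. According to the probe names, 130 (80.2%) had a probe designed on a cDNA, beside 76.8% of the loci well above background on all 12 arrays. A probe labelled combiner alone was rarer, with 2 loci (1.23%, beside 4.84%). For 125 (77.2%, beside 72.9%) the probe region was given as coding sequence and 3' UTR. By chromosome number in the locus, chromosome 1 held 31 of them (19.1%, beside 14.4%), chromosome 10 held 12 (7.41%, beside 5.15%) and chromosome 7 held 6 (3.70%, beside 7.78%). Within 5 array loci of another of the 162 lay 18 loci (11.1%), in 9 pairs. The same distance from one of the 162 held for 966 of the 18323 other loci (5.27%). No 3 lay together. Of the pairs, Os01g0717700 and Os01g0718000, Os03g0399800 and Os03g0399900, and Os08g0434100 and Os08g0434300 were direct neighbours on the array's list of loci, and they are named after their values were seen. Os08g0434300 had responses of -3.21 ± 0.63 in FR13A and -3.33 ± 0.63 in Goda Heenati, well short of those of Os08g0434100 beside it. The difference between the pair was not tested.

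The choice of the 162 used the differences between treatments, which do not enter the average difference between genotypes. It also asked for signal on all 12 arrays, which keeps out loci that one genotype holds near background, so the other loci that met this demand are the closer comparison. FR13A and Goda Heenati differed, averaged over submerged and control samples, at 8 of the 162 loci (4.94%), of which 3 were higher and 5 lower in FR13A (limma, adjusted p under 0.05 and at least 2-fold). With the replicate number as a block, 13 were called. Over all loci tested the share was 11.6%, and over the 18323 other loci well above background on all 12 arrays it was 6.39%. The share of unadjusted p under 0.05 was 16.0% of the 162 and 24.9% of all loci tested. The SE of the difference was larger for the 162, with a median of 0.44 against 0.25 over all loci tested, and its part in the lower share was not tested. Each locus was read by its brightest probe. Probe sequences were not used, so whether a probe binds the transcripts of both genotypes alike was not tested.

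Os09g0110300 (chromosome 9) was higher in FR13A in both treatments. Its levels were -1.83, -2.82 and -1.06 in FR13A submerged leaves, against -4.72, -4.61 and -3.75 in Goda Heenati submerged leaves. In control leaves they were 1.84, 1.67 and 1.47 in FR13A, against 0.03, -0.54 and -0.28 in Goda Heenati. The genotypes did not overlap in either treatment. The average difference, FR13A minus Goda Heenati, was 2.19 ± 0.29 (SE, limma adjusted p = 0.0003). Os09g0332100 (chromosome 9) lay at -3.53, -2.64 and -2.68 in FR13A submerged leaves, against -5.06, -4.90 and -4.67 in Goda Heenati submerged leaves. In control leaves it lay at 0.86, 0.83 and 0.67 in FR13A, against 0.22, 0.40 and 0.15 in Goda Heenati. Here too FR13A was above Goda Heenati in every sample of both treatments, by 1.23 ± 0.18 on average (limma adjusted p = 0.0006).

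Os03g0694000 (chromosome 3) was lower in FR13A. Its levels were -5.85, -4.84 and -4.18 in FR13A submerged leaves, against -3.39, -2.18 and -3.28 in Goda Heenati submerged leaves. In control leaves they were -0.87, -1.01 and -2.16 in FR13A, against 1.86, 1.16 and 0.53 in Goda Heenati. Every FR13A sample lay below every Goda Heenati sample of the same treatment, and the average difference was -2.27 ± 0.38 (limma adjusted p = 0.0016). Os06g0120200 (chromosome 6) lay at -5.73, -6.16 and -4.30 in FR13A submerged leaves, against -3.62, -3.29 and -4.50 in Goda Heenati submerged leaves. In control leaves it lay at -1.92, -2.51 and -2.04 in FR13A, against -0.50, -0.29 and -1.08 in Goda Heenati. The submerged samples overlapped by 1 array of each genotype and the controls did not, and the average difference was -1.56 ± 0.34 (limma adjusted p = 0.0083).

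The other 4 rested on less. Os01g0692100 differed by -1.43 ± 0.38 (limma adjusted p = 0.0261), Os03g0109300 by -1.26 ± 0.37 (adjusted p = 0.0455) and Os12g0516000 by -1.56 ± 0.47 (adjusted p = 0.0463), all lower in FR13A. Os04g0513400 was 1.18 ± 0.35 higher in FR13A (limma adjusted p = 0.0419). With each of the 12 arrays left out in turn, the first 4 loci kept their calls in all 12 fits. Of the 8 loci, Os09g0110300 alone kept its call under every other setting tried. Os06g0120200 lost it without slide 1 (limma adjusted p = 0.152) and with normexp background correction (adjusted p = 0.651), and Os03g0694000 with normexp (adjusted p = 0.326). With normexp Os09g0332100 lost its call too (limma adjusted p = 0.0757), and without the array on which normexp failed its difference of 0.985 was short of 2-fold. Of the other 4, Os01g0692100 kept it in 5, Os04g0513400 in 3, Os03g0109300 in 2 and Os12g0516000 in 3, with adjusted p of up to 0.112.

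**Figure D5:**
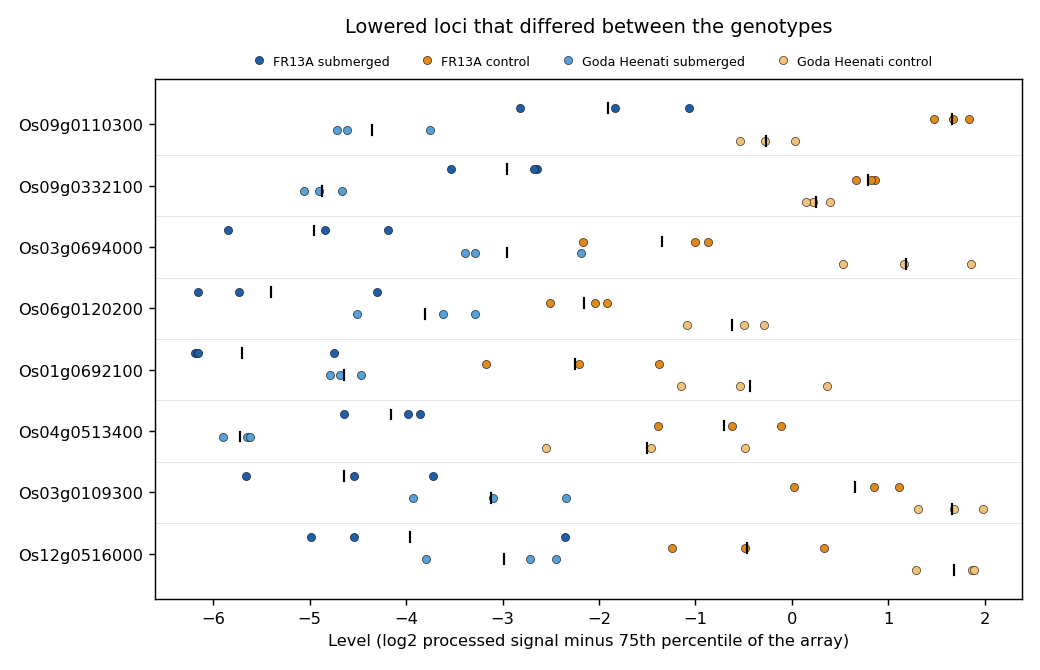
Level (log2 processed signal minus the array's 75th percentile, horizontal) of the 8 lowered loci that differed between the genotypes on average, 1 point per array and a bar at the mean of each group of 3. For Os09g0110300 and Os09g0332100 the FR13A points lie right of the Goda Heenati points of the same treatment, and for Os03g0694000 they lie left of them.

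Within one treatment fewer differences were called. A genotype difference within a treatment includes a part of the difference between the responses, which the choice of the loci limits, so these counts are not independent of it. Under submergence 4 of the 162 differed between the genotypes, and 9 when the replicate number entered as a block. The share of the 4 was 2.47%, beside 10.2% of all loci tested and 5.91% of the 18323 other loci well above background on all 12 arrays. The 4 were Os09g0332100, higher in FR13A by 1.93 (limma adjusted p = 0.0004), Os09g0110300, higher by 2.45 (adjusted p = 0.0024), Os03g0694000, at -2.01 (adjusted p = 0.0362), and Os02g0805500, at -1.12 (adjusted p = 0.0454). Os02g0805500 lay at -4.36, -4.33 and -3.56 in FR13A submerged leaves, against -3.47, -2.86 and -2.55 in Goda Heenati submerged leaves, without overlap. In controls 2 differed, or 4 with the block. The share of the 2 was 1.23%, beside 8.51% of all loci tested and 4.54% of those 18323 other loci. The 2 were Os03g0694000, at -2.53 (limma adjusted p = 0.0117), and Os09g0110300, higher in FR13A by 1.93 (adjusted p = 0.0125). Without slide 1 neither was called in controls.

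No difference between the 2 responses was called among the 162 (limma, lowest adjusted p = 0.317). The share was 0.093% of all loci tested and 0.027% of the 18323 other loci well above background on all 12 arrays. With shares this low, the lack of calls says little about the 162. At an unadjusted p under 0.05 there were 3 (1.85%, beside 4.50% of all loci tested). The choice of the loci bounds both responses at -3 and so limits this difference. The differences ran from -1.56 to 1.81, FR13A minus Goda Heenati, and at the median SE of 0.87 the 95% interval reached 1.93 to either side. For 5 of the 162 loci the interval lay within 1 of 0, so that like responses in the 2 genotypes were not shown for the rest. These intervals come from the fit without the slide, so variation shared by the arrays of a slide stays in the SE. Intervals with the replicate number as a block were not computed. The lowest adjusted p was that of Os09g0332100, with responses of -3.74 ± 0.25 in FR13A and -5.13 ± 0.25 in Goda Heenati. For TIP1;2 the difference was -1.52 ± 0.75 (limma adjusted p = 1).

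Across the gene lists written from general knowledge, 109 loci with a usable name were tested in 20 lists. Of these 20 were called lower in FR13A and 21 in Goda Heenati, beside 11.7% of all loci tested in each genotype, and 3, the aquaporins above, belong to the 162. The counts of the lists that follow are to be read against the same 11.7%. Among 11 tested genes of the cell wall, 3 were called lower in FR13A and 7 in Goda Heenati, none was called higher, and the median response was -0.93 and -1.68. The 8 tested genes of abscisic acid and dehydrins had 4 lower and 2 higher in FR13A, and 3 lower and 1 higher in Goda Heenati, with medians of -1.52 and -1.60. The 8 tested genes of jasmonate and its JAZ repressors had 4 lower in FR13A and 3 in Goda Heenati, none higher, with medians of -1.56 and -1.24. These lists are a selection, and others rose. Over the 20 lists the lowest medians were those of 4 tested DREB genes, -2.02 in FR13A and -3.27 in Goda Heenati. The highest were those of 6 tested genes of the diterpenoid clusters, 1.71 and 3.07. Among 13 tested loci of photosynthesis, photorespiration and chlorophyll synthesis, 1 was called lower and 1 higher in FR13A and none in Goda Heenati, with median responses of -0.37 and -0.20. Of these 13, 7 were saturated on at least 1 array, and the medians include those spots. By list, 7 of the 13 were of chlorophyll synthesis, 3 of photorespiration and catalase, 2 of photosystems and electron carriers, and 1 of the Calvin cycle. No light-harvesting gene had a usable name, so these counts do not speak for photosynthesis as a whole.

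Listed loci that were above background in controls alone could not enter the set, and for them only a bound of the fall is known. RAB16C (Os11g0454000), a dehydrin, was well above background on no submerged and all control arrays, at least 11.7-fold lower in FR13A and at least 7.63-fold lower in Goda Heenati (limma adjusted p = 0.000367 and 0.000616). EXPA1 (Os04g0228400), an expansin that loosens cell walls, was likewise above it in controls alone, at least 3.47-fold lower in FR13A and at least 4.93-fold lower in Goda Heenati (limma adjusted p = 0.000368 and 0.000102). The vein markers CESA4 (Os01g0750300) and CESA7 (Os10g0467800), cellulose synthases of secondary walls, were well above background on all control arrays. On the submerged arrays CESA4 was above it on 1 of 3 in FR13A and 0 of 3 in Goda Heenati, and CESA7 on 2 of 3 and 1 of 3, so their responses are not given as sizes. CESA4 was called lower in both genotypes and CESA7 in Goda Heenati (limma adjusted p = 0.0148 and 0.114 in FR13A, and 0.0038 and 0.00773 in Goda Heenati). For CESA4 in Goda Heenati the bound is at least 5.48-fold lower. The part that a change in the share of vein cells may have in the fall of the 162 loci was not tested.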

How the data were processed

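The authors scanned 12 one-colour (Cy3) arrays and read their spots with Agilent Feature Extraction 10.5.1.1, per the submitters' processing notes. The processed signal they deposited is intensity on a linear scale after background subtraction, per the file headers. A second deposited table, of log2 values for 42475 probes, had a median of 10.02 in each column and r of at least 0.9975 with the matching array. How the authors normalized it is not stated in the labels, and it served as an alternative.

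Groups and replicate numbers came from the sample titles. Each array's 75th percentile of log2 processed signal was subtracted, control spots were dropped, and outlier spots were excluded from levels and tests but retained in choosing the loci, where 14 of the 162 had one. Each locus was represented by its brightest probe. The 22582 loci whose probe exceeded background on every array of some group were tested in one fit of the 4 groups with limma 3.58.1 (R 4.3.3, 8 residual degrees of freedom). P-values were adjusted by Benjamini-Hochberg over all of them, and a call needed at least a 2-fold difference with an adjusted p below 0.05. The number of arrays limits the precision.

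The loci and the gene lists were chosen with earlier results of these data known. Of 197 listed pairs of name and locus, 122 names were held by the gene table (ASM3414082v1) on the chromosome of the locus, 70 were not held and 5 were on another chromosome, and only the 122 were used. Loci were named by rule: those in a list, the 10 whose smaller fall of the 2 genotypes was largest, the 10 brightest in controls, 3 on either side of the threshold, those called for the average genotype difference, and the one nearest the median. On simulated data of 22019 loci with 50 changed at each size, the test of the average genotype difference recovered 66% at a difference of 1.5, 76% at 2, 92% at 3 and 98% at 4, with 7 false calls. The simulated arrays were drawn independently, with no slide effect and no submergence effect. The real arrays of a slide deviated together, so these rates need not hold for them.

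The numbers pair the samples by slide: deviations of same-numbered arrays from their group means correlated at 0.259 to 0.787.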

Additional observations from a re-analysis of the deposited data

How the results depend on the processing

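The number of loci chosen was 162, and 155 with quantile normalization, 156 from the authors' deposited table, 174 with saturated spots left out, 165 with all probes averaged and 164 with the percentile taken over probes. It was 53 with normexp background correction (median signal, offset 50), whose estimate failed on FR13A submerged replicate 2 (r of 0.762 with the processed signal, at least 0.973 elsewhere), and 104 without that array. With normexp on all arrays the median response in FR13A was -2.62. A threshold of 2 gave 552 loci, one of 4 gave 43, and asking for signal above background in controls alone gave 433. Leaving out slide 1 gave 125 loci and leaving out slide 3 gave 235. Leaving out 1 array gave 138 to 188 loci and medians of -4.17 to -3.58 in FR13A and -4.17 to -3.75 in Goda Heenati. The 8 calls for the average genotype difference were 13 with the replicate number as a block, which kept all 8, 5 with no filter on dim probes, 1 with normexp (4 without the failed array), 5 without slide 1, 5 without slide 3 and 4 to 9 without 1 array. The 2 in controls were 4 with the replicate block, 1 with normexp (5 without the failed array), 0 without slide 1 and 1 to 5 without 1 array. The 4 under submergence were 9 with the replicate block, 1 with normexp (2 without the failed array), 2 without slide 1 and 2 to 6 without 1 array. The average had 4 calls without FR13A submerged replicate 2, FR13A control replicate 2, Goda Heenati submerged replicate 3 or Goda Heenati control replicate 3, and 5 without replicate 1 of either submerged group. Controls had 5 without FR13A submerged replicate 3 and 1 without Goda Heenati control replicate 1. Submergence had 2 without FR13A submerged replicate 2, Goda Heenati submerged replicate 2 or Goda Heenati control replicate 2. No difference between the responses was called under any setting of scaling, background, filter, spots, block or arrays that was refitted, and no median or average genotype difference changed sign. The other thresholds and the demand on controls alone changed the set of loci and were not tested this way. The settings without a slide, with the percentile over probes and with normexp on 11 arrays were chosen after seeing the data. The cause of these changes was not tested, except that leaving out arrays leaves fewer samples.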

Other observations

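A few of the 162 loci differed as much between slides as between treatments, and they were picked out after their values were seen. Os01g0922700 lay at -3.25, -0.84 and -4.07 in FR13A submerged leaves, against 0.77, 2.97 and -2.54 in FR13A control leaves. In Goda Heenati it lay at -3.82, -2.73 and -6.32 in submerged leaves, against 0.97, 2.54 and -2.50 in control leaves. Slide 2 was the highest and slide 3 the lowest in all 4 groups. Os03g0254200 ran the other way, with -3.24, -6.37 and 0.65 in FR13A submerged leaves, against 2.01, -0.63 and 2.76 in FR13A control leaves. In Goda Heenati its levels were -4.85, -4.77 and 0.10 in submerged leaves, against 0.94, -1.26 and 2.27 in control leaves. Slide 3 was the highest in all 4 groups at this locus. Os11g0644600 had -2.98, -4.00 and -0.33 in FR13A submerged leaves, against 2.17, -1.14 and 1.61 in FR13A control leaves. With the replicate number as a block the calls for the average genotype difference also took in Os01g0656200, at 1.27 ± 0.24 (limma adjusted p = 0.00534), Os02g0617800, at 1.1 ± 0.30 (adjusted p = 0.0282), Os03g0287100, at -1.24 ± 0.36 (adjusted p = 0.0381), Os06g0538400, at -1.24 ± 0.38 (adjusted p = 0.0466), and Os12g0181500, at -1.05 ± 0.27 (adjusted p = 0.0208), as FR13A minus Goda Heenati.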
